A study of Schizosaccharomyces pombe with 6 samples.

Results

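The enzymes that build amino acids were followed in fission yeast (*Schizosaccharomyces pombe*) cells of the *nup211-so* strain grown without or with thiamine. Members were chosen by name alone, as the protein-coding genes whose symbol is arg, lys, leu, his, trp, met, ilv, aro, ser, tyr or pro followed by digits, and 57 of the 6291 counted genes met this rule. Of these, 12 begin with met, 10 with arg, 7 with lys, 7 with his, 5 with trp, 4 with ilv, 3 each with leu, aro and ser, 2 with pro and 1 with tyr. By annotation 55 act in or beside amino acid synthesis, whereas *arg82* encodes an inositol polyphosphate kinase and *trp1322* a TRP-like calcium channel. All 57 passed the filter on low counts.

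RNA was sequenced from 3 cultures grown in Edinburgh minimal medium (EMM) with adenine and leucine, and from 3 cultures grown in the same medium with 10 μg/ml (30 μM) thiamine for 24 h, washed, and grown in fresh thiamine medium for another 24 h. All 6 cultures carried *nup211::P81nmt1 ura4+*, *leu1-32*, *ura4-D18* and *ade6-M210* in an h+ background. In this strain the thiamine-repressible promoter P81nmt1 stands before *nup211*, which encodes a nuclear pore protein, so that thiamine is meant to shut *nup211* off. The sources differ on whether the wash was in EMM or in EMM with thiamine. All cultures were of 1 engineered strain and no wild-type RNA-seq was used here. An effect of thiamine itself and an effect of *nup211* repression therefore cannot be told apart. How long the cultures without thiamine were grown is not given in the sources used here. A difference in growth stage between the groups thus cannot be told apart from these either.

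Fission yeast makes every amino acid from central carbon intermediates, ammonium and sulfate, and EMM holds no amino acid beyond the leucine added here. Each pathway is a chain of enzymes whose genes lie scattered over the chromosomes. Their transcription is known to respond to amino acid supply through the eIF2α kinases and the transcription factor Fil1, to nitrogen through the GATA factor Gaf1, and to sulfur through Zip1, which the F-box protein Pof1 marks for degradation.

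The libraries held 37195197 to 48815139 counts, of which ribosomal RNA genes took 41.2% to 48.98% without thiamine and 46.3%, 28.7% and 24.6% in thiamine replicates 1, 2 and 3. Counts of *nup211* were 477, 590 and 473 without thiamine and 644, 551 and 655 with it, and its log2 change of −0.17 ± 0.11 (SE) did not pass the test (edgeR adjusted p = 0.199), with 87.0% of the gene overlapped by a counted antisense gene. The thiamine-repressed thiamine synthesis gene *nmt1*, which is wholly overlapped, followed the labels, with 1631 to 2061 counts without thiamine and 0 to 3 with it. The marker *ura4* fell from 79.4 ± 5.10 to 23.6 ± 2.36 CPM (counts scaled to a library size of 1e+06, SD, n = 3 per group), a change of −1.75 ± 0.10. Directions below are therefore those of the libraries labelled thiamine, not of a measured fall in *nup211* mRNA. From Western blots, the paper reports less Nup211 protein in cells of this strain grown with thiamine. It does not say whether the sequenced cultures were those blotted.

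Levels are given as CPM after TMM normalization, changes as log2 of thiamine over no thiamine with the standard error (SE) of the fit, and a gene was called when its edgeR quasi-likelihood p, adjusted by Benjamini-Hochberg over the 5434 genes tested, was under 0.05. On this scale the median change of all genes was −0.01. Scaling by library totals moved that median to 0.57, totals without ribosomal RNA genes to 0.31 and upper-quartile scaling to −0.31. The median of the members lay 0.34 to 0.36 below that of all genes under each of these scalings. That follows from their construction, since each shifts all genes by nearly the same amount. Every direction given here is thus relative to the bulk of the transcriptome.

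On the TMM scale more of the amino acid genes fell than rose with thiamine, whereas with library totals more rose than fell. Of the 57 members, 27 were called lower (47.4%, against 35.3% of all genes tested) and 7 higher (12.3%, against 34.5%), and 23 were not called, so that 59.6% were called against 69.8% of all genes. The median log2 change was −0.36 for the members and −0.01 for all genes, and 41 members (71.9%) had a negative change against 50.5% of all genes. A fall of at least 2-fold was called for 13 members (22.8%, background 13.6%) and a rise of that size for 4 (7.02%, background 16.4%), namely *leu3*, *met1*, *met8* and *trp1322*. The 2 groups of libraries did not overlap for 37 members (64.9%), against 75.5% of all genes. Without *arg82* and *trp1322* there were 27 lower and 6 higher.

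The split of calls moved with the scale, as it did for all genes. With library totals 10 members were called lower and 17 higher, beside 588 lower (10.8%) and 2724 higher (50.1%) among all genes. On either scale 41 of the 57 members lay below the median of all genes, a rank that a common shift hardly changes. On that scale *arg1*, *arg4*, *arg5*, *arg6*, *arg11*, *ilv5*, *leu2*, *lys4*, *aro1* and *his3* were newly called higher. Still negative but no longer called were *arg3*, *aro2*, *tyr1*, *trp1*, *his1*, *his2*, *his4*, *his6*, *lys9*, *met10*, *pro2*, *ser1* and *ser2*. Of the members called on the TMM scale, *arg12*, *lys12*, *met7* and *pro1* turned positive. With totals without ribosomal RNA genes the calls of those 4 were lost, and 23 members were lower (background 22%) and 14 higher (background 46.9%). With upper-quartile scaling 35 were lower (background 47.5%) and 5 higher (background 25.2%).

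Of the 57 members, 17 are overlapped over 50% of their length or more by other counted genes, and these had a median of 30.6 counts per kb and library against 4380 for the other 40. Protein-coding genes as a whole differed in the same manner, with 45.0 and 1102 counts per kb. Among the 40 members with less overlap, 19 fell (47.5%) and 6 rose (15.0%) with a median of −0.35, against 38.4% lower and 38.6% higher of the protein-coding genes with as little overlap. Among the 17, 8 fell (47.1%) and 1 rose (5.88%), against 26.9% lower and 21.0% higher of the protein-coding genes overlapped to that extent. How reads shared by overlapping genes were counted, and whether strand was used, is not given in the sources used here, so the values of the 17 are uncertain, and the overlap is stated where each is described.

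**Figure D1:**
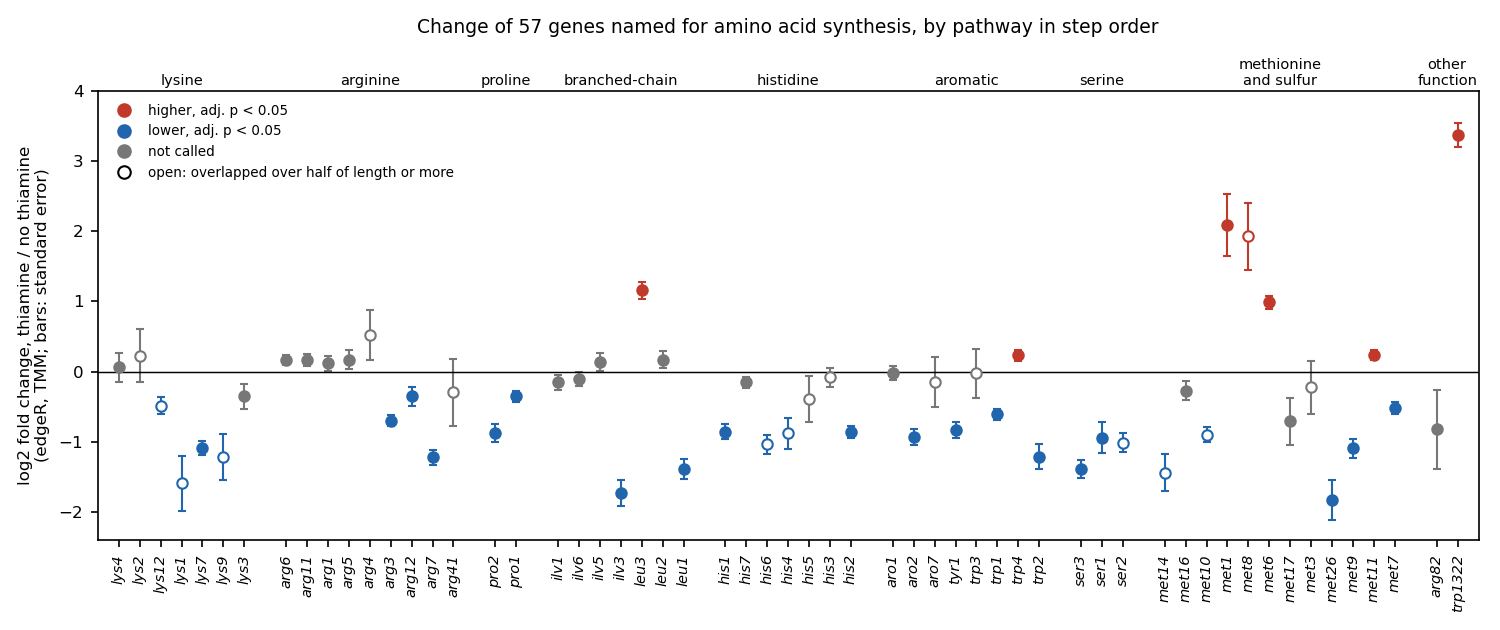
Log2 change with thiamine (y axis, edgeR with TMM scaling, bars ± 1 SE) of each of the 57 members, ordered by pathway and by step within it. Red points were called higher (7), blue points lower (27) and grey points were not called (23), and open points mark the 17 genes overlapped over 50% or more of their length. On this scale the 7 histidine genes all lie below 0, 3 of them above it with library totals, whereas the branched-chain and sulfur genes lie on both sides of 0.

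The member with the most reads was *met26*, the methionine synthase that methylates homocysteine. Its level was 7204, 7575 and 8365 CPM without thiamine and 2589, 2671 and 1255 CPM with it. The groups did not overlap, and thiamine replicate 3 was the lowest library. The change was −1.83 ± 0.29 (adjusted p = 0.000465), a 3.55-fold fall. It alone carried 38.1%, 38.4% and 38.5% of all member CPM without thiamine and 18.9%, 19.0% and 10.2% with it. The summed level of all members was 18885, 19711 and 21735 CPM without thiamine and 13691, 14051 and 12247 CPM with it. Without *met26* the sums were 12395 ± 874 and 11158 ± 200 CPM (SD, n = 3 per group).

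The folate enzymes that feed the methionine synthase did not move together. Fission yeast has a pair of methylenetetrahydrofolate reductases, which make the methyl donor. That encoded by *met9* was measured at 207, 201 and 216 CPM without thiamine and 104, 111 and 77.2 CPM with it, a change of −1.10 ± 0.13 (adjusted p = 9.89e-05), and all 3 thiamine libraries were below the others. The other, *met11*, was measured at 80.1, 78.3 and 82.2 CPM and then 93.0, 88.9 and 101 CPM. Its groups did not overlap either, and its change of 0.24 ± 0.08 was called (adjusted p = 0.0236), but the call was lost when no-thiamine replicate 1, no-thiamine replicate 2 or thiamine replicate 1 was left out, and the sign turned with upper-quartile scaling (−0.06). The folylpolyglutamate synthase gene *met7*, overlapped over 49.1% of its length by another counted gene, fell by 0.52 ± 0.09, and reached 0.07 with library totals.

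Genes of homocysteine synthesis also went both ways. The homoserine O-acetyltransferase *met6*, which activates homoserine for this branch, was measured at 259, 243 and 253 CPM without thiamine and at 486, 509 and 506 CPM with it. Both groups were tight and lay apart, and the rise of 0.99 ± 0.09 on the log2 scale had an adjusted p of 2.33e-05. Another gene annotated with this activity, *cys2*, is not a member and was not called (0.07 ± 0.26, adjusted p = 0.827). Without thiamine replicate 3 its change was −0.35 (adjusted p = 0.0127). The homocysteine synthase *met17*, which adds sulfide to the product of Met6, was at 357, 398 and 359 CPM without thiamine and at 142, 157 and 383 CPM with it. Thiamine replicates 1 and 2 lay below all control libraries, whereas replicate 3 lay among them. Over all libraries the change of −0.71 ± 0.34 was not called (adjusted p = 0.0896), and without thiamine replicate 3 it was −1.33 (adjusted p = 2.92e-08). This gene was singled out after its values were seen. The cystathionine gamma-synthase *met3* had 12 to 24 counts per library, is overlapped over its whole length, and was not called.

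In sulfate assimilation, the 2 genes called at least 2-fold higher both act in the making of siroheme, the cofactor of sulfite reductase. The first, *met1*, encodes the uroporphyrin methyltransferase that begins it. It was measured at 138, 152 and 116 CPM without thiamine and at 314, 338 and 1077 CPM with it. All thiamine libraries were above all controls, and replicate 3 was far above the other 2. The change was 2.09 ± 0.44 (adjusted p = 0.00271) with replicate 3 and 1.25 without it (adjusted p = 2.42e-07). The siroheme synthase *met8* also rose, by 1.93 ± 0.48, but on 3 to 7 counts per library without thiamine and 18 to 37 with it, in a gene overlapped over 95.1% of its length. Without replicate 3 its rise was 2.19 (adjusted p = 0.00120), above that of *met1*. The sulfite reductase flavoprotein *met10* was measured at 37.3, 39.6 and 36.1 CPM and then 17.9, 20.2 and 22.5 CPM. It fell by 0.90 ± 0.10 (adjusted p = 6.41e-05), with 58.6% of it overlapped by an antisense gene. The adenylyl-sulfate kinase *met14* had 77, 105 and 87 counts and then 45, 54 and 34. It is wholly overlapped by another counted gene and fell by 1.44 ± 0.26 (adjusted p = 0.00110). The PAPS reductase *met16* was not called (−0.27 ± 0.13), and its level was lowest in thiamine replicate 3.

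Other sulfur genes that are not members had their highest level in thiamine replicate 3 as well, and were also looked at after their values were seen. The sulfite reductase hemoprotein *sir1* was at 370 to 411 CPM in the controls, at 416 and 411 CPM in thiamine replicates 1 and 2 and at 872 CPM in replicate 3. The sulfate adenylyltransferase *sua1*, with 43.8% of it overlapped by an antisense gene, was at 297, 301 and 475 CPM with thiamine, and *cys2* at 146, 152 and 294 CPM. Replicate 3 differed from the mean of the other 2 thiamine libraries by more than 0.5 on the log2 scale in 18 members (31.6%), against 20.1% of all genes tested. Of these, 9 were among the 17 members overlapped over 50% or more (52.9%, against 30.9% of protein-coding genes overlapped to that extent). The other 9 were among the 40 with less overlap (22.5%, against 14.9% of such protein-coding genes). Replicate 3 was above the other 2 thiamine libraries for *met1* (1.73) and *met17* (1.36) and below them for *met26* (−1.07). It also had the lowest share of ribosomal RNA counts, whose part in these values was not tested. Without it 29 members were lower (background 37.2%) and 11 higher (background 35.5%), with a median of −0.24.

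**Figure D2:**
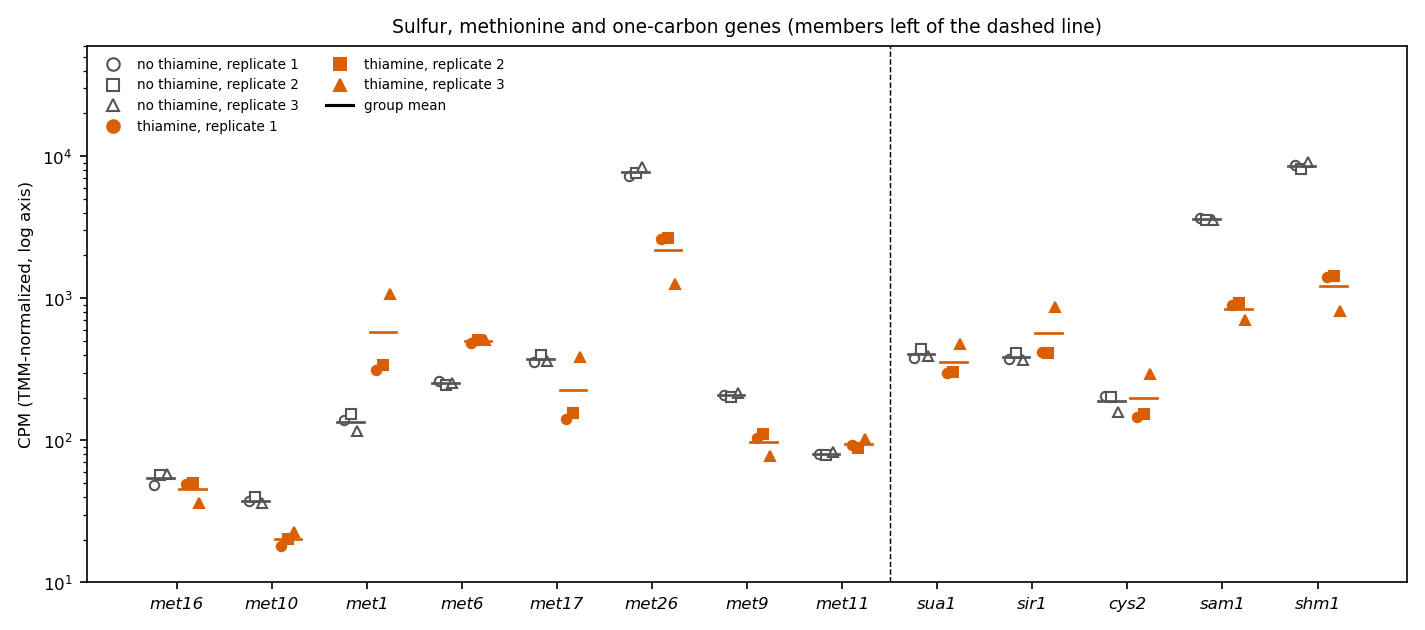
Level in CPM (log axis) of 8 members of the methionine and sulfur pathways, left of the dashed line, and of 5 related genes right of it, with 1 point per library and a line at the group mean (grey open, no thiamine; orange filled, thiamine). The triangle of thiamine replicate 3 lies above the other thiamine points for *met10*, *met1*, *met17*, *met11*, *sua1*, *sir1* and *cys2*. It lies below them for *met16*, *met26*, *met9*, *sam1* and *shm1*, and between them for *met6*.

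The pathway to the branched-chain amino acids split by step. The first enzymes are shared by valine and isoleucine, and leucine branches off at the 2-isopropylmalate synthase Leu3. The gene *leu3* (SPBC3E7.16c, 1 exon) was measured at 421, 452 and 498 CPM without thiamine and at 943, 1002 and 1122 CPM with it. Every thiamine library was above every control, and the rise was 1.16 ± 0.12 (adjusted p = 4.38e-05), 2.24-fold. The last gene of the leucine branch, *leu1* (SPBC1A4.02c, 1 exon), encodes the 3-isopropylmalate dehydrogenase and is the gene that bears the *leu1-32* allele in all 6 cultures. It was measured at 470, 527 and 587 CPM without thiamine and at 225, 216 and 163 CPM with it. These groups did not overlap either, in the opposite order, and the change was −1.39 ± 0.15 (adjusted p = 4.86e-05), a 2.62-fold fall.

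Between these steps the isopropylmalate isomerase *leu2* was at 443, 461 and 529 CPM and then 562, 575 and 476 CPM. Its groups overlapped, and it was not called over all libraries (0.17 ± 0.12, adjusted p = 0.238), although it was without thiamine replicate 3 (0.24, adjusted p = 0.0351). Of the shared enzymes, the dihydroxy-acid dehydratase *ilv3* was measured at 430, 462 and 483 CPM without thiamine and at 161, 155 and 97.3 CPM with it. It fell by 1.74 ± 0.18 (adjusted p = 4.79e-05), 3.33-fold. The reductoisomerase *ilv5*, one of the most abundant members, was at 1631, 1895 and 2023 CPM without thiamine and at 2023, 2096 and 1978 CPM with it, where the groups overlap and the change of 0.14 ± 0.13 was not called (adjusted p = 0.389). With length and GC trends removed, however, *ilv5* was called higher (0.52, adjusted p = 0.000789). The catalytic and regulatory subunits of acetolactate synthase, *ilv1* (−0.16 ± 0.10) and *ilv6* (−0.10 ± 0.10), were not called either. None of the 7 genes is overlapped over more than 6.46% of its length, and the directions of *leu3*, *leu1* and *ilv3* held under all scalings.

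**Figure D3:**
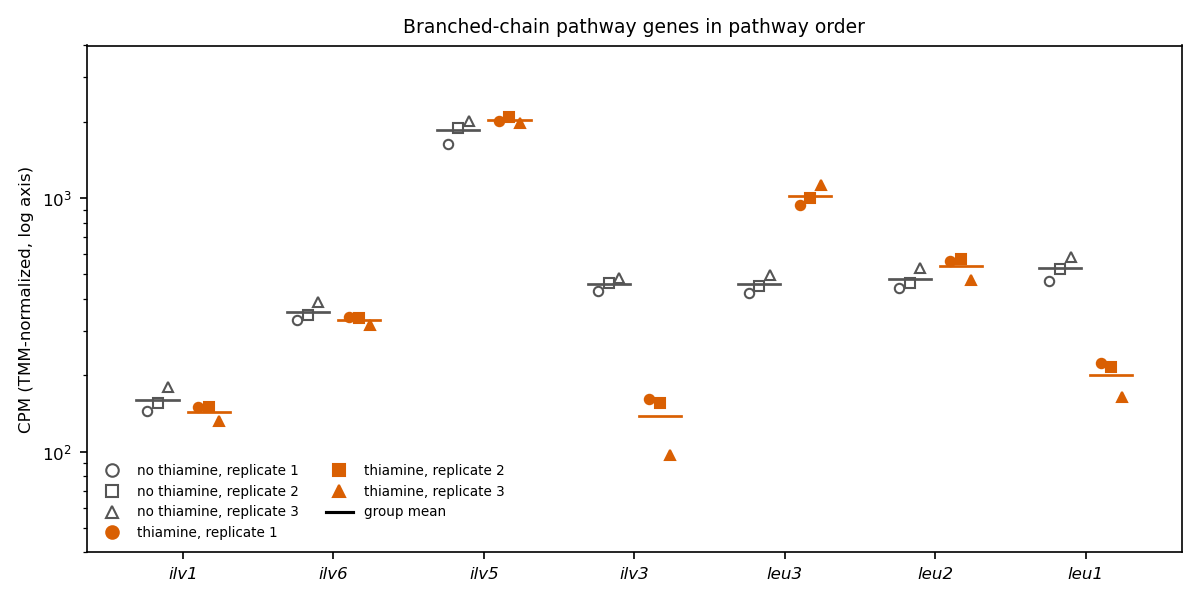
Level in CPM (log axis) of the 7 branched-chain genes in pathway order, with 1 point per library (grey open, no thiamine; orange filled, thiamine) and a line at the group mean. With thiamine *leu3* rises from a mean of 457 to 1022 CPM, *ilv3* falls from 459 to 138 and *leu1* from 528 to 201, while the points of the other 4 genes overlap.

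The letters upstream of *leu3* and *leu1* are shown because these neighbours in 1 pathway moved in opposite directions, and those of *his7* because it is another of the 3 members that hold the motif searched. Each run is 300 bases from the RefSeq annotation of ASM294v3, from 250 bases before the annotated start to 50 after it, 5′ to 3′ on the gene's own strand. Capitals mark TGACTC, the core of the site read by Gcn4 of *Saccharomyces cerevisiae*, or its reverse complement GAGTCA.
leu3 (chrII:2690563-2690862, minus strand): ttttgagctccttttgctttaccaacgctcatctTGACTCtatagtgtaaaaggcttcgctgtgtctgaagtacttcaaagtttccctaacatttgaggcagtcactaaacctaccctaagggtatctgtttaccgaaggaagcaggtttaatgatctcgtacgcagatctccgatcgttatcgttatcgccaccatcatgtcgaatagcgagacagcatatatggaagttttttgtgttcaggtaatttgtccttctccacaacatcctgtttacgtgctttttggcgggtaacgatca
his7 (chrII:2042143-2042442, minus strand): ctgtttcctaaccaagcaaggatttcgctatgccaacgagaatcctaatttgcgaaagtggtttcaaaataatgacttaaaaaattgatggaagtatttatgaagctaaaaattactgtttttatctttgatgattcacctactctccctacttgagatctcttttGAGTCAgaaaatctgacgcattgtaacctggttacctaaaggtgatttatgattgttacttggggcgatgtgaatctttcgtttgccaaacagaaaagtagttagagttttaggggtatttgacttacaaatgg
leu1 (chrII:1975625-1975924, minus strand): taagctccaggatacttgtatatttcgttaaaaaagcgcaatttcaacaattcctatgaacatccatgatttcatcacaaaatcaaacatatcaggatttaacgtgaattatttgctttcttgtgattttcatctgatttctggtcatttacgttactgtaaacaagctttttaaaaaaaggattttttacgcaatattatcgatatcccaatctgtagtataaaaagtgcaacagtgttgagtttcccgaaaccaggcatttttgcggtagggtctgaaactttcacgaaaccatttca

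In the *leu3* window the motif starts at −216 from the annotated start and in the *his7* window at −84, and the *leu1* window holds none. The third member with a match is *met7*, at −115, but the start of *met7* in RefSeq lies 1416 bp from the deposited one and its window is not printed. Over all promoters of this length, TGACTC on either strand was in 345 of 5038 (6.85%), and among the members in 3 of 57 (5.26%). The 3 genes that hold it differed in their change, with *leu3* higher, *his7* not called and *met7* lower. The GATA letters GATAAG, searched on either strand after the values of *gaf1* had been seen, were in 585 of the 5038 promoters (11.6%) and in 10 of the 57 members (17.5%). Those 10 were *arg4*, *arg7*, *arg41*, *aro2*, *ilv1*, *lys12*, *met11*, *pro2*, *trp2* and *trp3*. Of them 5 were called lower, 1 higher and 4 were not called, beside 47.4% lower and 12.3% higher of all members. Among all genes tested the shares were 35.3% and 34.5%. The match of *lys12* lies 36 bases after the annotated start, and the window of *arg7* rests on a start 448 bp from the deposited one. Apart from *arg7* and *met7*, the RefSeq starts of the members lay within 250 bp of the deposited ones (median 45 bp).

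All 3 genes of serine synthesis from 3-phosphoglycerate fell (35.3% of all genes did). The first, the phosphoglycerate dehydrogenase *ser3*, was measured at 1727, 1521 and 1884 CPM without thiamine and at 645, 704 and 607 CPM with it. No library of one group reached the other, and the change was −1.39 ± 0.13 (adjusted p = 2.44e-05). The aminotransferase *ser1* went from 183, 200 and 226 CPM to 125, 125 and 66.4 CPM (−0.95 ± 0.22). The phosphatase *ser2* was at 7.34, 7.01 and 6.34 CPM and then at 3.68, 3.35 and 3.21 CPM, a change of −1.02 ± 0.13 (adjusted p = 0.000150) in a gene overlapped over 58.3% of its length. The fall of *ser3* was called under every scaling, whereas those of *ser1* and *ser2* were not called with library totals (−0.39 and −0.45).

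In histidine synthesis all 7 measured genes had a negative change and 4 were called (57.1%, against 35.3% of all genes), with a median of −0.86; with library totals *his7*, *his5* and *his3* turned positive (0.44, 0.16 and 0.49) and none of the 4 calls held. The largest fall was in *his6*, an isomerase in the middle of the pathway, measured at 10.1, 10.7 and 11.1 CPM without thiamine and at 5.89, 5.24 and 4.43 CPM with it. Its groups lay apart, with a change of −1.04 ± 0.13 (adjusted p = 0.000135), and 81.0% of the gene is overlapped. Among the genes with little overlap, *his1*, the ATP phosphoribosyltransferase that opens the pathway, fell from 264 ± 15.1 to 146 ± 18.1 CPM (−0.86 ± 0.11). The gene of the last enzyme, histidinol dehydrogenase *his2*, fell from 172 ± 9.58 to 94.2 ± 6.39 CPM (−0.86 ± 0.09). The imidazoleglycerol-phosphate synthase *his4*, overlapped over 90.8% of its length, fell by 0.88 ± 0.22. The genes not called were *his7* (−0.16 ± 0.08, and called at −0.21 without thiamine replicate 3), *his5* (−0.39 ± 0.33), overlapped over its whole length, and the aminotransferase *his3* (−0.08 ± 0.13, and 0.02 without thiamine replicate 3), overlapped over 86.3%.

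Lysine is made in fungi from 2-oxoglutarate through aminoadipate, and 4 of its 7 genes were called, all lower (57.1%, against 35.3% of all genes). Its first gene, the homocitrate synthase *lys4*, was one of the most abundant members and was not called (0.06 ± 0.20), with 860, 881 and 1061 CPM without thiamine and 1103, 1147 and 671 CPM with it. Thiamine replicate 3 was the lowest and the other 2 the highest of the 6 libraries. Later in the pathway the aminoadipate reductase Lys1 is activated by the phosphopantetheinyl transferase Lys7. The gene *lys7* was at 11.7, 11.9 and 11.4 CPM without thiamine and at 5.67, 5.72 and 5.04 CPM with it, without overlap, and changed by −1.09 ± 0.11 (adjusted p = 2.90e-05). For *lys1* there were 44, 46 and 26 counts and then 14, 26 and 11, and for the saccharopine reductase *lys9* 80, 109 and 97 counts and then 49, 80 and 36. After scaling their groups did not overlap and both were called, *lys1* at −1.59 ± 0.40 (adjusted p = 0.00613) and *lys9* at −1.22 ± 0.33 (adjusted p = 0.00890), but both are wholly overlapped by other counted genes and their counts are low. The homoisocitrate dehydrogenase *lys12*, with 75.9% of its length overlapped, fell by 0.49 ± 0.12 and was positive with library totals (0.09). The last gene, *lys3*, was not called (−0.35 ± 0.18), nor was *lys2*, with 21 to 63 counts per library in a gene overlapped over its whole length.

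Of the 8 aromatic genes 4 fell and 1 rose, beside 35.3% lower and 34.5% higher of all genes tested. The trunk to chorismate is carried by the pentafunctional Aro1 and by chorismate synthase, Aro2. The level of *aro1* was 230 ± 12.1 and 226 ± 19.0 CPM and was not called (−0.03 ± 0.10). That call turned on the setting, as *aro1* was lower with length and GC trends removed (−0.55, adjusted p = 0.00166) and with upper-quartile scaling (−0.32, adjusted p = 0.0220) and higher with library totals (0.55, adjusted p = 0.0304). The gene *aro2* was at 230, 260 and 284 CPM without thiamine and at 141, 144 and 121 CPM with it, a change of −0.93 ± 0.11 (adjusted p = 9.91e-05). Prephenate dehydrogenase, *tyr1*, on the branch to tyrosine, was at 44.4, 44.1 and 42.9 CPM and then at 27.4, 26.2 and 20.3 CPM. It too was lower in all thiamine libraries (−0.83 ± 0.11, adjusted p = 0.000223). On the branch to tryptophan, the tryptophan synthase *trp2* was measured at 336, 357 and 374 CPM without thiamine and at 174, 175 and 110 CPM with it, where it fell by 1.22 ± 0.18 (adjusted p = 0.000284). The multifunctional *trp1* fell by 0.61 ± 0.07. Its neighbour in the pathway, the phosphoribosyltransferase *trp4*, was at 61.0 ± 2.92 and 71.5 ± 1.85 CPM. That rise of 0.23 ± 0.07 was called (adjusted p = 0.0202), but not when either of no-thiamine replicates 1 and 2 or of thiamine replicates 1 and 2 was left out, and it turned to −0.06 with upper-quartile scaling. The chorismate mutase *aro7*, overlapped over 88.9% of its length, and the anthranilate synthase *trp3*, overlapped over all of it, had at most 60 counts per library and were not called.

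Of the 9 arginine genes 3 were called, all lower (33.3%, near the 35.3% of all genes), and the median was 0.12. The 3 called genes encode enzymes of the last steps, which turn ornithine into arginine. The argininosuccinate lyase *arg7* was measured at 24.0, 23.6 and 25.5 CPM without thiamine and at 10.9, 11.4 and 8.92 CPM with it. Its groups did not overlap and the change was −1.23 ± 0.11 (adjusted p = 1.97e-05). The ornithine carbamoyltransferase *arg3* fell from 101 ± 1.76 to 61.8 ± 4.01 CPM (−0.70 ± 0.08). The argininosuccinate synthase *arg12* was at 453 ± 32.9 and 354 ± 58.2 CPM, a change of −0.35 ± 0.14 near the threshold (adjusted p = 0.0467) that was lost without any single no-thiamine library and turned to 0.21 with library totals. The genes of ornithine synthesis, *arg6*, *arg11* and *arg1*, and the small carbamoyl-phosphate synthase subunit *arg5* lay between 0.12 and 0.17 and were not called. These results turned on the scale, as the signs were negative with upper-quartile scaling (−0.12 to −0.18). With library totals all of them were called higher (0.70 to 0.75), as with totals without ribosomal RNA genes (0.44 to 0.49). Without thiamine replicate 3 *arg6* and *arg11* were called (0.16 and 0.17), and with DESeq2 *arg11* was (0.19, adjusted p = 0.0173). The large subunit *arg4* (0.52 ± 0.36) and the other lyase gene, *arg41* (−0.30 ± 0.47), are wholly overlapped by other counted genes and were not called. However, *arg4* was called at 0.84 without thiamine replicate 3 and at 1.04 with library totals.

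Both proline genes fell (35.3% of all genes did). The glutamate 5-kinase *pro2* was at 60.6, 58.1 and 59.8 CPM without thiamine and at 37.6, 33.2 and 26.1 CPM with it, a change of −0.88 ± 0.13 (adjusted p = 0.000275) with no overlap between the groups. The next enzyme, *pro1*, changed by −0.36 ± 0.08 and was positive with library totals (0.22).

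The 2 genes that share only the name pattern were read apart from the enzymes. The channel gene *trp1322* was measured at 19.1, 14.7 and 18.5 CPM without thiamine and at 156, 161 and 226 CPM with it. No control reached the thiamine libraries, and the rise of 3.38 ± 0.17 (adjusted p = 1.09e-06) was the largest of the 57. The kinase gene *arg82* had 12, 4 and 18 counts and then 8, 10 and 8, and was not called (−0.83 ± 0.56, adjusted p = 0.216), except without no-thiamine replicate 2 (−1.25, adjusted p = 0.0451).

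Read per kb of transcript, the order of the most abundant members changed with thiamine. Without thiamine the highest levels were those of *met26* (2765 CPM per kb), *ilv5* (1218), *ser3* (747) and *lys4* (529). With thiamine they were *ilv5* (1338), *met26* (778), *lys4* (552) and *leu3* (450), and *ser3* was at 285 CPM per kb. The level of *leu3* moved from rank 12 to rank 4.

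Other genes of amino acid metabolism, listed from general knowledge with results of these data known, had a like split. Of 26 found in the table, 14 fell (53.8%, against 35.3% of all genes) and 5 rose (19.2%, against 34.5%), with a median of −0.50. With library totals 6 fell and 9 rose (background 10.8% and 50.1%), with a median of 0.07. The list first held *str3* and *asp1* too, which by annotation are a heme transporter and an inositol phosphate kinase, and with them 15 of 28 fell. Those called at least 2-fold lower were *shm1*, a serine hydroxymethyltransferase (8579 ± 472 to 1219 ± 352 CPM, −2.81 ± 0.25), *gdh1*, the NADP-dependent glutamate dehydrogenase that takes up ammonium (1852 ± 111 to 315 ± 99.2 CPM, −2.55 ± 0.24), and *sam1*, the S-adenosylmethionine synthetase that uses the product of Met26 (3599 ± 50.4 to 839 ± 125 CPM, −2.10 ± 0.16). The other 3 were *gcv2* (−1.88 ± 0.10), *gcv3* (−1.64 ± 0.11) and *gcv1* (−1.61 ± 0.14), subunits of the glycine cleavage complex. Of these *gcv1* is overlapped over 63.5% of its length, so its value is uncertain. These 6 fell under every scaling. The genes that rose did so by less than 2-fold, with asparagine synthetase *asn1* highest (694 ± 63.4 to 1264 ± 148 CPM, 0.86 ± 0.13).

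Of 10 regulators of these pathways, 7 rose and 2 fell with a median of 0.71, beside 34.5% higher and 35.3% lower of all genes tested, and *gcn1* was not called (0.01 ± 0.08, negative with upper-quartile scaling). With library totals 8 rose and 1 fell (background 50.1% and 10.8%), and with upper-quartile scaling 7 rose and 3 fell (background 25.2% and 47.5%). The transcription factor *fil1*, which has the role that Gcn4 has in budding yeast, was at 102, 95.6 and 114 CPM without thiamine and at 325, 339 and 509 CPM with it. The groups lay apart and the rise was 1.91 ± 0.18 (adjusted p = 2.39e-05), 3.76-fold. The GATA factor *gaf1* was at 74.6, 76.3 and 75.8 CPM and then at 266, 276 and 370 CPM (2.01 ± 0.13, adjusted p = 3.71e-06). The F-box gene *pof1* was at 44.2, 45.7 and 43.5 CPM and then at 162, 170 and 301 CPM (2.25 ± 0.23, adjusted p = 3.46e-05), and its substrate *zip1* rose by 0.64 ± 0.09. Thiamine replicate 3 was again the highest library for *fil1*, *gaf1* and *pof1*. The eIF2α kinase genes differed, with *hri1* at 46.3 ± 3.44 and 93.7 ± 21.0 CPM (1.02 ± 0.15), *gcn2* up by 0.60 ± 0.10, and *hri2* at 35.3 ± 1.37 and 16.8 ± 3.38 CPM, a fall of 1.07 ± 0.14. The ribosome-bound *cpc2*, overlapped over 40.5% of its length by other counted genes, fell by 0.73 ± 0.15 and was not called with library totals (−0.14). These are transcript levels, and the translation of *fil1*, which is known to be regulated, was not measured.

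**Figure D4:**
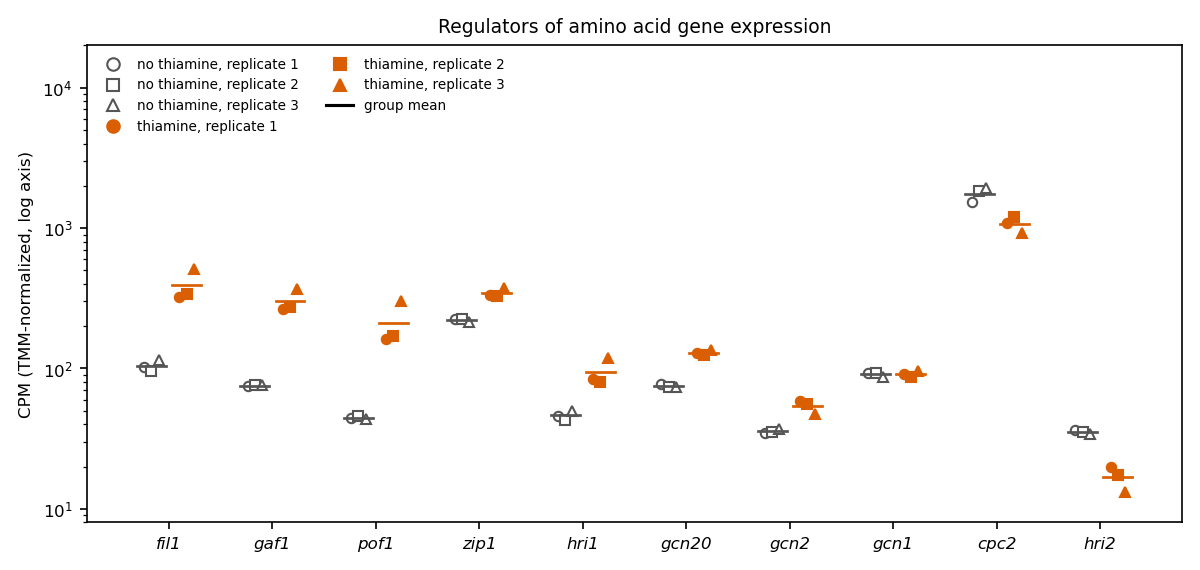
Level in CPM (log axis) of the 10 regulators, with 1 point per library (grey open, no thiamine; orange filled, thiamine) and a line at the group mean. The thiamine points of *fil1*, *gaf1*, *pof1*, *zip1*, *hri1*, *gcn20* and *gcn2* lie above all control points, those of *cpc2* and *hri2* lie below, and those of *gcn1* overlap.

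As a check on the state of the cells, 7 markers of sexual development were read, and they moved in both directions. With thiamine 2 were called higher (background 34.5%) and 4 lower (background 35.3%), and with library totals 3 higher and 2 lower. The meiosis regulator *mei2* fell from 50.1 ± 2.96 to 6.74 ± 1.16 CPM (−2.89 ± 0.13, adjusted p = 6.47e-07). The gene *mam2*, annotated as the receptor of the pheromone P-factor, fell from 28.7 ± 5.25 to 9.72 ± 1.27 CPM (−1.56 ± 0.15, adjusted p = 2.71e-05). The transcription factor *ste11*, which drives mating genes, rose from 35.7 ± 1.83 to 112 ± 13.9 CPM (1.66 ± 0.10, adjusted p = 2.62e-06). The groups of each of these 3 genes did not overlap. The other calls were *map2* (0.94 ± 0.18), *rec8* (−0.60 ± 0.13) and *spo5* (−0.36 ± 0.12). Annotated as the P-factor pheromone itself, *map2* was low in both groups, at 1.96 ± 0.26 CPM without thiamine and 3.77 ± 0.52 CPM with it. The summed level of all 7 ranged from 177 to 215 CPM without thiamine and from 179 to 213 CPM with it, a sum in which the opposite changes offset each other. None was at 0, and the part of these changes in the results above was not tested.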

How the data were processed

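RNA-seq of 6 cultures of the *nup211-so* strain was used, 3 without and 3 with thiamine, which the labels call biological replicates. The authors prepared stranded libraries of polyadenylated RNA and deposited counts of reads per gene for 6291 genes, without normalization. STAR and DESeq2 are named in the submitters' processing notes, and their versions, the build, the counting tool and its use of strand are not given in the sources used here. All 6 count columns were used (0 left over). The authors also deposited their own DESeq2 comparison (mean signal, log2 fold change, its error, score, p-values and −log10 p), of which only gene names, types, descriptions, positions and transcript lengths were used.

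Counts were tested with edgeR 4.0.16 (TMM, quasi-likelihood F test with robust dispersion, Benjamini-Hochberg) in R 4.3.3 after its default filter on low counts, which kept 5434 genes. Levels are TMM-normalized CPM. DESeq2 1.42.0, other scalings, no filter, a replicate block, loess removal of length and GC trends (span 0.5) and leaving out each library were alternatives. No 2 replicates were the same library (chi-square per degree of freedom 36.7 to 1078). Samples with the same number did not deviate together (r = −0.005, 0.09 and −0.03), so they were not paired. P-values cover the spread between these cultures only.

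Members were taken by name in the deposited annotation, and the members and gene lists were chosen with earlier results of these data known. Full values are given for the called member of each name prefix with the largest change, for every called member past 2-fold, for the 3 highest levels per kb, for *leu1*, and for the genes that are not synthesis enzymes. Genes of the amino acid and regulator lists are named when called past 2-fold, and *fil1* always; others were named after their values were seen. Of the 33 symbols listed as other amino acid genes, 5 were not found and 2 were set aside by annotation.

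Gene positions, exons and promoters come from RefSeq on ASM294v3, where all 57 members matched by identifier and symbol and shared the 3′ end with the deposited position. None had a stretch of at least 100 bp with 95% identity elsewhere. Overlap is the share of a gene covered by other counted genes.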

Additional observations from a re-analysis of the deposited data

How the results depend on the processing

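Of the 34 member calls, all 34 kept their direction and call with RLE size factors, with ribosomal RNA genes left out and with DESeq2, and 31 to 34 when 1 library was left out. Library totals moved the counts to 17 higher and 10 lower and the members' median to 0.21, totals without ribosomal RNA genes moved the rise count to 14 and the median to −0.033, and upper-quartile scaling moved the median to −0.65. Leaving out 1 library gave 5 to 11 members higher, the 11 without thiamine replicate 3. These scalings shift all genes by a constant near 0.58, 0.32 or −0.29, which is their construction.

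With library totals the sign turned for *arg12* (0.21), *arg41* (0.28), *aro1* (0.55), *aro7* (0.49), *trp3* (0.56), *ilv1* (0.43), *ilv6* (0.48), *his7* (0.44), *his5* (0.16), *his3* (0.49), *lys12* (0.091), *lys3* (0.21), *met16* (0.29), *met3* (0.33), *met7* (0.067) and *pro1* (0.22). With totals without ribosomal RNA genes it turned for *arg41* (0.021), *aro1* (0.30), *aro7* (0.18), *trp3* (0.29), *ilv1* (0.17), *ilv6* (0.22), *his7* (0.17), *his3* (0.24), *met16* (0.048) and *met3* (0.088), none of them called on the TMM scale. With upper-quartile scaling it turned for *arg6* (−0.13), *arg11* (−0.13), *arg1* (−0.18), *arg5* (−0.12), *trp4* (−0.065), *ilv5* (−0.16), *leu2* (−0.12), *lys4* (−0.23), *lys2* (−0.067) and *met11* (−0.062). With length and GC trends removed it turned for *arg11* (−0.052), *ilv6* (0.12) and *lys4* (−0.031), the calls of *arg12*, *trp4* and *met11* were lost, and *aro1* (−0.55), *ilv5* (0.52), *arg1* (0.22) and *lys3* (−0.43) were called; the cause was not tested. Without single libraries the changes ranged from −0.073 to 0.26 for *lys4*, −0.43 to 0.11 for *aro7*, −0.33 to 0.095 for *trp3*, −0.14 to 0.48 for *lys2*, −0.84 to 0.044 for *arg41*, −0.082 to 0.030 for *aro1*, −0.16 to 0.022 for *his3* and −0.50 to 0.00026 for *met3*, none of them called over all libraries.

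Replicate numbers did not pair the samples. With a replicate block 3719 genes were called in place of 3794 and 33 of the 34 member calls stayed, the call of *arg12* being lost and *met17* called (−0.87); 2 of the 3 no-thiamine libraries correlated best with the thiamine library of another number. With the replicate block and length and GC trends removed together, *arg11* (−0.053), *ilv6* (0.12) and *lys4* (−0.059) turned, the calls of *arg12*, *trp4* and *met11* were lost, and *aro1* (−0.56), *ilv5* (0.52) and *met17* (−0.84) were called. Low counts were not the limit for most members. Those with at most 63 counts in any library (*lys1*, *lys2*, *met3*, *met8*, *trp3*, *his5*, *aro7*, *arg41* and *arg82*) had standard errors of 0.33 to 0.56. All of them but *arg82* are overlapped over 88.9% of their length or more by other counted genes. The part of that overlap in their low counts was not tested.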
